A study of Mus musculus with 207 samples.

Results

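The transcripts described here were 100 genes whose signals were most split over the F2 mice in both sexes, out of 3412 genes that passed the filters of the same rule. They were selected on the shape of their own signal distribution, so the split itself is given as a description and is not tested. The data came from bone marrow macrophages of 93 females and 90 + 24 males, 207 mice in all, each 16 weeks old, apoE-deficient and from the F2 generation of an AKR by DBA/2 intercross, and the RNA of each mouse was read on 1 array. The cells had grown for 2 weeks in medium with L-cell conditioned medium, no treatment was compared and no mouse was wild type for apoE, and each mouse carries a number in its code, starting at 33 in females and at 9 in males. The males numbered 55 to 78, 24 in all, had array medians of 76 to 122.3 MAS5 units (the arbitrary scale of the array software) against 54.7 to 78.9 in the other 90 males, and the rule left them out of the measure of the split.

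In an F2 intercross each mouse inherits at every autosomal locus either both copies from one grandparental strain, both from the other, or a copy of each. A transcript whose level depends on the alleles at 1 locus can therefore take separate levels in different mice, and genes that lie close together on a chromosome are mostly inherited together. A signal can also take separate levels when a batch of cultures, RNA or arrays stands apart from the rest, or when a short array probe binds the transcript of the 2 strains unequally.

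The split was measured by the bimodality coefficient, which is the squared skewness plus 1, divided by the kurtosis. It is 0.556 for an even distribution and can be higher for a distribution with separate peaks. Separate peaks need not raise it over 0.556, for example where a middle level lies between a low and a high one. The coefficient can also rise where a few mice on 1 side skew the distribution, without separate peaks. It was taken on log2(signal + 1) in the 93 females and in the 90 males, and genes were ranked by the lower of both values. Of 45037 probe sets (groups of short probes for 1 transcript) 34945 had 1 gene symbol, 14710 of these reached 200 MAS5 units at the 67th percentile of all mice, 4619 had a Spearman correlation under 0.3 in size with the code number in both sexes, and 4468 remained after genes on X or Y and of the named families Gpnmb, H2- and Ifi20 were left out. Both coefficients were over 0.556 in 66 genes, which is 1.93% of all 3412, and all 66 were members by construction. The lower coefficient of the members ran from 0.52 to 0.91, and its median was 0.58 against 0.36 over all 3412 genes. At the edge of the list it was 0.525 for Smarce1, 0.524 for Slc2a6 and 0.524 for Trim65 on the inside, and 0.524 for Slc25a11, 0.523 for Mrpl15 and 0.523 for Exoc4 on the outside, so the edge marks no step.

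The members lay on 19 autosomes, with 11 on chromosome 11, 9 each on chromosomes 1 and 2 and 1 on chromosome 18. The labels of sex were checked first. Xist, the RNA made from the inactive X chromosome, was at 3030 or above in each female and at 807 or below in each male, and the Y-linked Eif2s3y was at 215 or below in each female and at 990.5 or above in each male. All 9 macrophage markers were over 200 MAS5 units by the same measure, whereas 0 of the 4 T and NK cell, 0 of the 2 erythroid and 0 of the 3 endothelial markers were. Of the other lists 4 of 5 stromal, 2 of 6 neutrophil, 1 of 3 B cell and 3 of 3 cell division markers were over it. In such bulk cultures fewer cells of a type and less RNA per cell cannot be told apart.

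Each member was divided in each sex at the cut that left the largest share of its variance between the sides. Plotted against the code numbers, the smaller sides were of different kinds. In 20 members a run of consecutive numbers, the 7 females from 99 on and males 93 to 96, made up at least 50% of the smaller side in both sexes, and in 12 members it did so in 1 sex. In the other 68 members, called spread over the numbers here, it made up less than that in both sexes. These kinds were defined after the signals had been seen, and they are described in turn.

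Usp39, a component of the spliceosome, had the highest lower coefficient, with 0.91 in females and 0.91 in males. Its signal in females was 138 at the lowest, 1366 at the median and 1852 at the highest, and in males it was 141 at the lowest, 1219 at the median and 1984 at the highest. No female lay between 516 and 824 and none of the 90 males between 408 and 1009.9, and 21 of 93 females and 22 of 90 males were below this gap. Psmd6, a subunit of the regulatory particle of the proteasome, had an even wider empty interval. Its signal was 122.5 at the lowest, 2611 at the median and 4938 at the highest in females and 142 at the lowest, 3489.6 at the median and 5822 at the highest in males, the empty interval lay between 594 and 1701 in females and between 671 and 2778 in males, and 23 of 93 females and 27 of 90 males were below it. The lowest mouse of both genes was over 100 MAS5 units in each sex, and the sexes overlapped at both levels.

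Casp9, the initiator caspase of the mitochondrial pathway of cell death, fell under 10 MAS5 units in its lowest mice. Its signal was 6.8 at the lowest, 277 at the median and 595 at the highest in females and 7.3 at the lowest, 303 at the median and 706 at the highest in males, and 17 of 93 females and 22 of 90 males were below the cut. Khdrbs1, which encodes the RNA-binding protein Sam68, was split the other way, with a low majority. Its signal was 218 at the lowest, 364 at the median and 3308 at the highest in females and 185 at the lowest, 327 at the median and 2535 at the highest in males, 68 of 93 females and 64 of 90 males were below the cut, and no female lay between 489 and 965. The high side of Khdrbs1 held 5 of the 7 females of the run and 2 of its 4 males. Of the 68 members 63 had a smaller side at the low level in both sexes and 4 at the high level. In 1 the smaller side differed between the sexes. A low minority was thus the usual form, and Khdrbs1 and Hspa13, a chaperone of the Hsp70 family at 576 at the lowest, 882 at the median and 3694 at the highest in females, were the exceptions among those of the 68 that stood in the first 30 ranks.

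Cd200r4, a receptor of the CD200 receptor family of myeloid cells, had 13.8 at the lowest, 1499 at the median and 3585 at the highest in females and 18.2 at the lowest, 1357 at the median and 4491 at the highest in males. The mice below the cut were 16 of 93 females and 17 of 90 males, with no female between 262 and 627 and none of the 90 males between 233 and 652. Its probes may also read other genes of that family, which was not tested. The gene encoding migfilin, Fblim1, a filamin-binding protein at cell contacts, had 8.1 at the lowest, 859 at the median and 2504 at the highest in females and 10.8 at the lowest, 847 at the median and 2316 at the highest in males, with 22 of 93 females and 18 of 90 males below the cut. Uqcr10, a small subunit of complex III of the respiratory chain, had 2.2 at the lowest, 476 at the median and 1452 at the highest in females and 12 at the lowest, 439 at the median and 1079 at the highest in males, and 18 of 93 females and 21 of 90 males were below the cut. In these 3 genes and in Psmd6 the empty interval was over 1 log2 unit wide in both sexes.

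**Figure D1:**
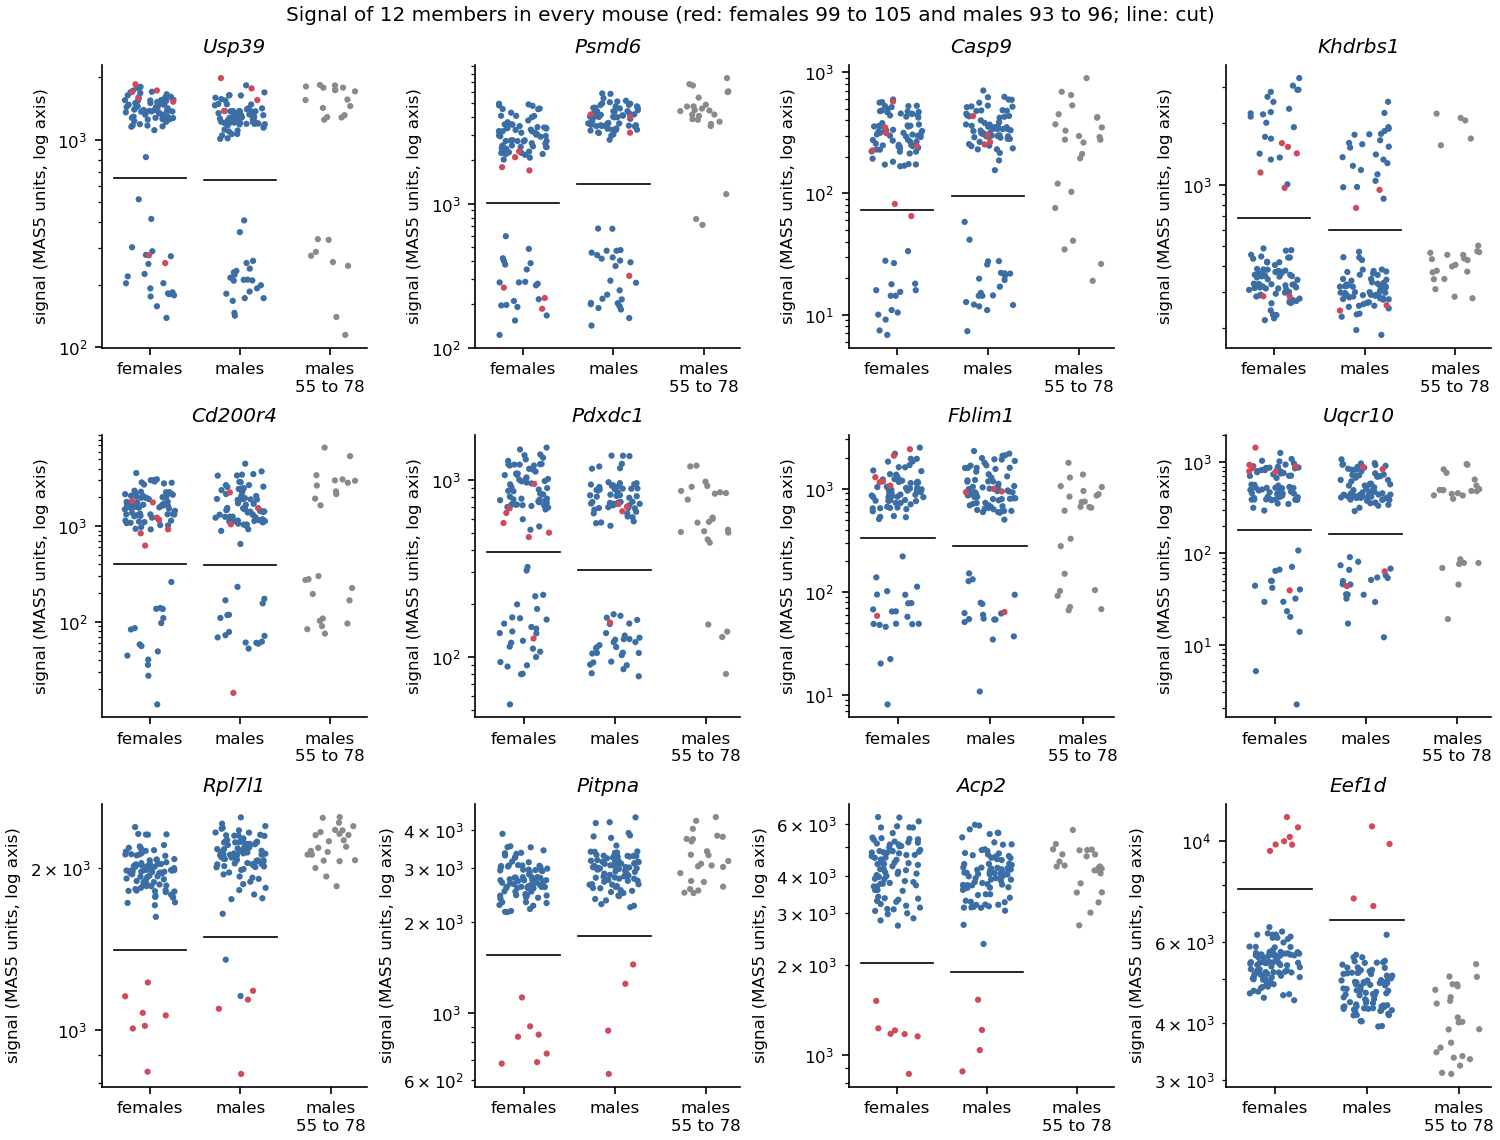
Signal of 12 members in every mouse (y axes, MAS5 units on a log scale) in 93 females, 90 males and the 24 males numbered 55 to 78 that the rule left out; points are mice, red points are the 7 females of the run and males 93 to 96, and the black line is the cut in that sex. In the upper 8 panels the red mice were a minority of the smaller side in both sexes, and 21 females and 22 males were below the cut of Usp39. In Rpl7l1, Pitpna and Acp2 the red mice were on the low side, in the males of Rpl7l1 along with other mice, and in Eef1d they were on the high side.

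Rbm45, an RNA-binding protein, had 184 at the lowest, 1165 at the median and 2039 at the highest in females and 62.1 at the lowest, 1102 at the median and 1885 at the highest in males, with 17 of 93 and 21 of 90 below the cut. Aqr, a helicase of the spliceosome, had a much narrower range, with 556 at the lowest, 1129.8 at the median and 1484 at the highest in females and 465 at the lowest, 1138 at the median and 1703 at the highest in males, and no empty interval to speak of, since the nearest signals on either side of the cut were 896 and 928 in females. Gtpbp4, a GTPase of ribosome assembly, had 33 of 93 females and 19 of 90 males below the cut. Next to the cut its nearest signals were 174 and 197 in females, so that in Aqr and Gtpbp4 a high coefficient went with a narrow gap.

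Pdxdc1, a protein with a pyridoxal-dependent decarboxylase domain, had 53.9 at the lowest, 747 at the median and 1519 at the highest in females and 77.7 at the lowest, 696 at the median and 1368 at the highest in males, and 28 of 93 females and 31 of 90 males were below the cut. Adi1, the acireductone dioxygenase of methionine salvage, had 18.3 at the lowest, 522 at the median and 1436 at the highest in females and 14.9 at the lowest, 523 at the median and 1719 at the highest in males, with 23 of 93 and 25 of 90 below the cut. In the 90 males no signal lay between 174 and 549.8 for Pdxdc1 or between 128 and 352 for Adi1. A4galt, the synthase of the globoside Gb3, was below the cut in 23 of 93 females and 15 of 90 males, and Srd5a3, a reductase of dolichol synthesis, in 16 of 93 and 12 of 90. Tfpi, the inhibitor of the tissue factor pathway of coagulation, was low in 19 of 93 females and 26 of 90 males, and Gab2, a docking protein of growth factor and Fc receptor signalling, in 19 of 93 and 25 of 90. The zinc finger genes Zfp945 and Zfp994 had 20 of 93 and 20 of 93 females and 18 of 90 and 17 of 90 males below the cut, with low signals down to 2.7 and 13.4 MAS5 units, and Clba1, a clathrin-binding protein, and Tceanc2 had 27 of 93 and 23 of 93 females.

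In the member's probe set of Cct3, a subunit of the cytosolic chaperonin, the smaller side was a handful of mice. It was low in 4 of 93 females and 2 of 90 males, with 1.6 at the lowest, 180.4 at the median and 314 at the highest in females and 5.7 at the lowest, 184 at the median and 337 at the highest in males. A member of the 12 with the run in 1 sex, Lsm14a, a protein of cytoplasmic RNA granules, was alike in this, with 6 of 93 females and 4 of 90 males below the cut. No female had a Lsm14a signal between 245 and 826, at a median of 1583, and 0 of these females but 2 of these males belonged to the run. For Cct3, 4 other probe sets were brighter, with medians of 1782 to 6070 in females and 2292 to 6155 in males. Their correlations with the member's were at most 0.13 in females and 0.3 in males. The lower coefficient of Cct3, 0.62, fell under 0.556 with an offset of 16 (0.54) and with all males (0.475). It stayed over 0.556 with scaled arrays (0.59) and without the run (0.6).

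The share of mice below the cut was set beside 25%, 50% and 75%, the shares of 1 homozygous class, of the heterozygotes and of both other classes together in an F2. In the genotype table of the males, homozygotes for the AKR allele made up 10.9% to 36% of the mice over 1921 autosomal markers (median 23%), heterozygotes 38.4% to 66.1% (median 50.9%) and homozygotes for the DBA/2 allele 13.8% to 37.2% (median 25.4%). The Wilson 95% interval of the share below the cut held 25% or 75% in both sexes for 45 of the 100 members and for 6.18% of all 3412 genes. The share comes from the same distributions that chose the members, and a smaller side made mostly of the run is too small to hold 25%, so nothing is read from the difference or from the kinds that the 45 belong to. The interval held 25% in both sexes for 43 of the 68, 75% for 2, and 50% in both sexes for 0, although it held 50% in 1 female and 2 male distributions. Over all 3412 genes it held 25% in both sexes for 4.84%, 75% for 0.615% and 50% for 33.9%. Nothing is read from these differences either, since the coefficient chose the members. Usp39 had 22.6% (interval 15.3% to 32.1%) of females and 24.4% (interval 16.7% to 34.2%) of males below, Psmd6 had 24.7% (interval 17.1% to 34.4%) and 30% (interval 21.5% to 40.1%), and Khdrbs1 had 73.1% (interval 63.3% to 81.1%) and 71.1% (interval 61% to 79.5%). Such an interval covers counting error and not the choice of the cut, and the genotypes could not be joined to the arrays, so which allele the low mice carried was not tested.

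**Figure D2:**
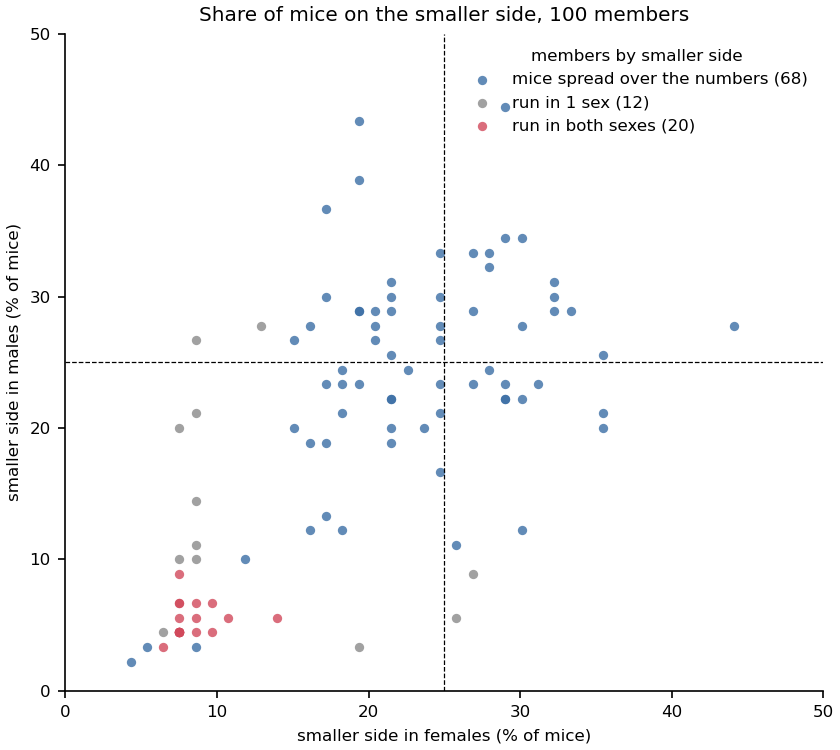
Share of females (x axis, % of mice) and of males (y axis, % of mice) on the smaller side of the cut, 1 point per member; dashed lines mark 25%. The 68 members with mice spread over the numbers (blue) ranged from 4 to 41 of 93 females and from 2 to 40 of 90 males, with medians of 22% and 24.4%, and the 20 members of the run in both sexes (red) lay at 6 to 13 of 93 females and 3 to 8 of 90 males.

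The 24 males numbered 55 to 78 gave a look at the same genes in mice that had no part in the coefficient, although they had counted in the filters on level and code number. Their coefficient was over 0.556 in 49 of the 100 members, and in 25.1% of all 3412 genes. Among the 68 members spread over the numbers it was over 0.556 in 39, among the 20 members of the run in 6 and among the 12 others in 4, and the median was 0.58 in the 68 members, 0.51 in the 20 and 0.48 over all genes. With 24 mice the coefficient is less precise than with 90. Usp39 was 114.2 at the lowest, 1369 at the median and 1838 at the highest, and 8 of 24 males were below the cut of the other 90 with none inside their gap. Cd200r4 was 75.7 at the lowest, 976 at the median and 6611 at the highest, with 12 of 24 below the cut and 3 inside the gap. Uqcr10 was 19 at the lowest, 470.2 at the median and 958 at the highest, with 7 of 24 below the cut and none inside the gap, whereas Psmd6 had 3 of 24 below, and 3 of the 24 lay inside the interval that was empty in the other 90. The gap held 6 of the 24 in Pdxdc1, 3 in Casp9, 2 in Khdrbs1, 2 in Fblim1 and 1 in Adi1. Over all members the gap of the 90 males held none of the 24 in 50. The median width of that gap was 0.2 log2 units. The same count is not given over all genes, so nothing is read from it.

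A second reading ranked the genes on females alone and then looked at males. Of the 100 genes with the highest female coefficient, 48 had a coefficient over 0.556 in the 90 males, against 3.75% of all 3412 genes, and the male median was 0.55 against 0.38. Without the mice of the run it was 52. 57 of these 100 genes were also members.

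The array carries several probe sets for many genes, which read other stretches of the transcript. Of the 100 members 66 had another probe set that reached 200 MAS5 units. In 29 of them at least 1 such probe set had a Spearman correlation over 0.5 with the member's in both sexes, and in 25 none reached 0.3 in both sexes. Uqcr10 was followed by another probe set (0.94 in females, 0.96 in males), as were Clba1 (0.93, 0.95), Fblim1 (0.87, 0.95), Adi1 (0.95, 0.96), Tfpi (0.88, 0.95) and Usp39 (0.78, 0.72). A brighter probe set of Uqcr10 did not follow, with 0.14 in females and 0.0046 in males and coefficients of 0.36 and 0.26. The 4 other probe sets of Khdrbs1 over 200 MAS5 units had correlations of at most 0.37 in females and 0.34 in males. Psmd6 was not followed either, since its other probe set correlated by 0.33 in females and 0.06 in males and had coefficients of 0.28 and 0.36. The second probe set of Usp39, although it followed, had coefficients of 0.33 and 0.44, under 0.556 in both sexes.

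Probe sets of 1 gene could also run against each other. This was so in Pdxdc1 and Adi1. The other probe set of Pdxdc1 had correlations of -0.87 in females and -0.75 in males with the member's. Its signal was 5.3 at the lowest, 1449 at the median and 3211 at the highest in females, and 25 females and 9 males were below its own cut. None of these mice was below the cut of the member's probe set, so that 28 females were low on the member's, 25 on the other and 40 on neither, and in males 31, 9 and 50. A further probe set of Pdxdc1 rose with the member's (0.84 in females, 0.6 in males). In Adi1 the opposed probe set had correlations of -0.53 and -0.4 and no clear gap, and its cut lay between 890 and 918 in females.

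Probe sets whose name carries the suffix x_at, which marks probes that can bind transcripts of other genes, made up 17 of the 100 members and 15 of the 68, among them Usp39, Khdrbs1, Srd5a3 and Cct3. They were 7.09% of all 3412 genes. The suffix a_at, for transcripts of the same gene, was on 18 members and 15.8% of all genes, and s_at, for shared sequence, on 7 members and 6.92%. For the members with x_at or s_at, transcripts of a near copy were not told apart from those of the gene.

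**Figure D3:**
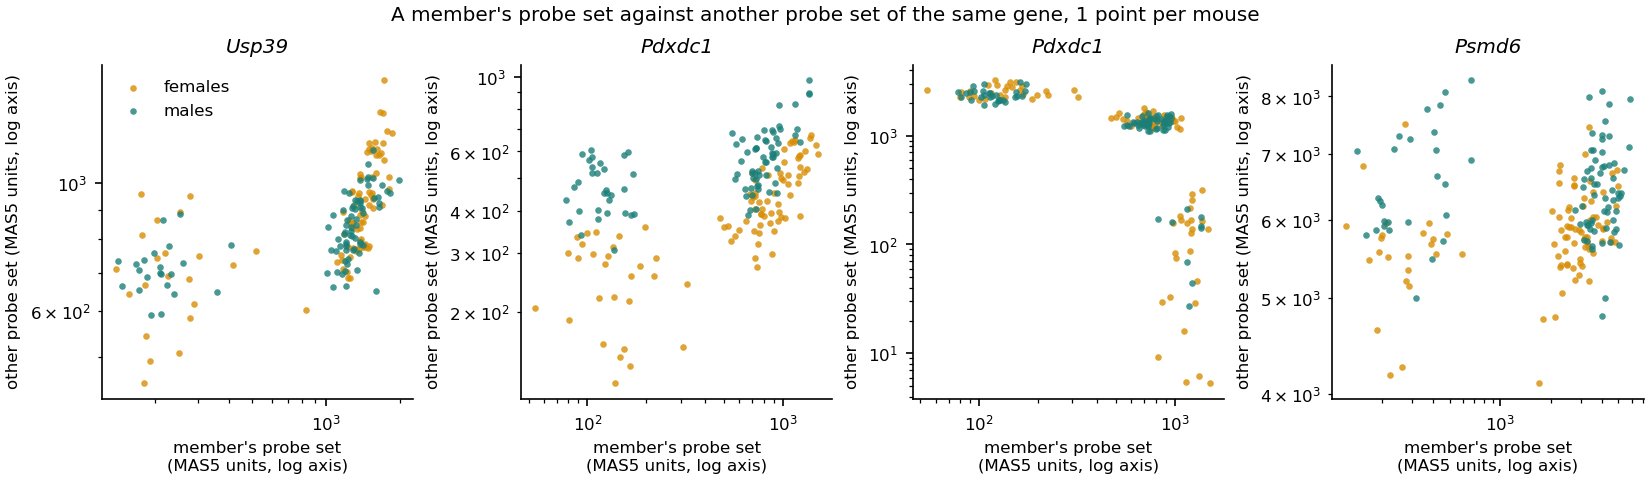
Signal of the member's probe set (x axes, MAS5 units, log scale) against another probe set of the same gene (y axes, MAS5 units, log scale) in 93 females and 90 males, 1 point per mouse. The other probe set of Usp39 rose with the member's (0.78 in females), 1 of Pdxdc1 rose and 1 fell with it (0.84 and -0.87), and that of Psmd6 was about as high in mice of both levels (0.33).

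Some members that lie close together on a chromosome moved together or in opposition. Among the 68 members spread over the numbers, 17 pairs lay within 50 protein-coding genes of each other, and 7 of them had a Spearman correlation over 0.5 in size and of the same sign in both sexes, 4 positive and 3 negative. Among pairs 51 to 200 genes apart it was 3 of 21, among pairs further apart on 1 chromosome 1 of 93, and among pairs on different chromosomes 2 of 2140. These counts are a description over pairs that share members and mice, and 2 members without a place in the order of protein-coding genes were left out of the pairs on 1 chromosome. The pairs outside the limit of 10 genes were chosen after their values were seen.

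Casp9 and Fblim1, with 7 genes between them on chromosome 4, were opposed, with correlations of -0.72 in females and -0.81 in males. Casp9 was low in 17 females and Fblim1 in 22, neither was low in 54, and 0 females were low in both. In males 22 were low in Casp9, 18 in Fblim1, 50 in neither and 0 in both. Rbm45 and Tfpi on chromosome 2, 32 genes apart, were opposed as well, with -0.69 and -0.78, and so were Clba1 and the zinc finger gene Zfp386 on chromosome 12, 18 genes apart, with -0.6 and -0.82.

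Other neighbours rose and fell together. Zfp945 and Zfp994, with 7 genes between them on chromosome 17, had correlations of 0.66 in females and 0.56 in males. Both were low in 17 females and 15 males, both were high in 70 females and 70 males, and 6 females and 5 males were low in 1 of them. They belong to a family of similar zinc finger genes, and whether their probes read each other's transcript was not tested. Scyl2, which is involved in membrane traffic, and Ndufa12, a subunit of complex I of the respiratory chain, lay 24 genes apart on chromosome 10 and had 0.68 and 0.82. Srd5a3 and Rbm47, an RNA-binding protein, 50 genes apart on chromosome 5, had 0.62 and 0.55. C130026I21Rik and A630001G21Rik, with 5 genes between them on chromosome 1, had 0.57 and 0.73, and each of them also followed Pam, an enzyme of peptide amidation 137 and 131 genes away, with 0.52 and 0.7 and with 0.6 and 0.74. Pitpna and Serpinf1, neighbours on chromosome 11 by the same limit, had -0.23 and -0.34, and Pitpna belonged to the members of the run. Without the mice of the run all 7 pairs within 50 genes stayed over 0.5 in size in both sexes, while C130026I21Rik and Pam had 0.46 and 0.68.

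Among the 68 members the pairs on different chromosomes were Lztr1 and Cmtm6 (0.57 in females, 0.61 in males) and Gpr162 and Cd1d1 (-0.6, -0.66). Pairs with a member of the other kinds were over 0.5 on different chromosomes in 19 of 2535 cases, of which 9 stayed over it without the run. The highest of all pairs by the lower correlation was of this sort, the run member P2rx7 on chromosome 5 and Gpr162 on chromosome 6, with 0.75 in females and 0.73 in males and 0.69 in both without the run. On 1 chromosome, Gab2 and the phosphodiesterase gene Pde2a, 66 genes apart, had 0.6 and 0.6, and Thg1l and Zzef1, 463 genes apart, had -0.63 and -0.52. At 10 genes or less the 4 neighbouring pairs had a median correlation of 0.17 in females and 0.11 in males, a value that averages both signs.

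**Figure D4:**
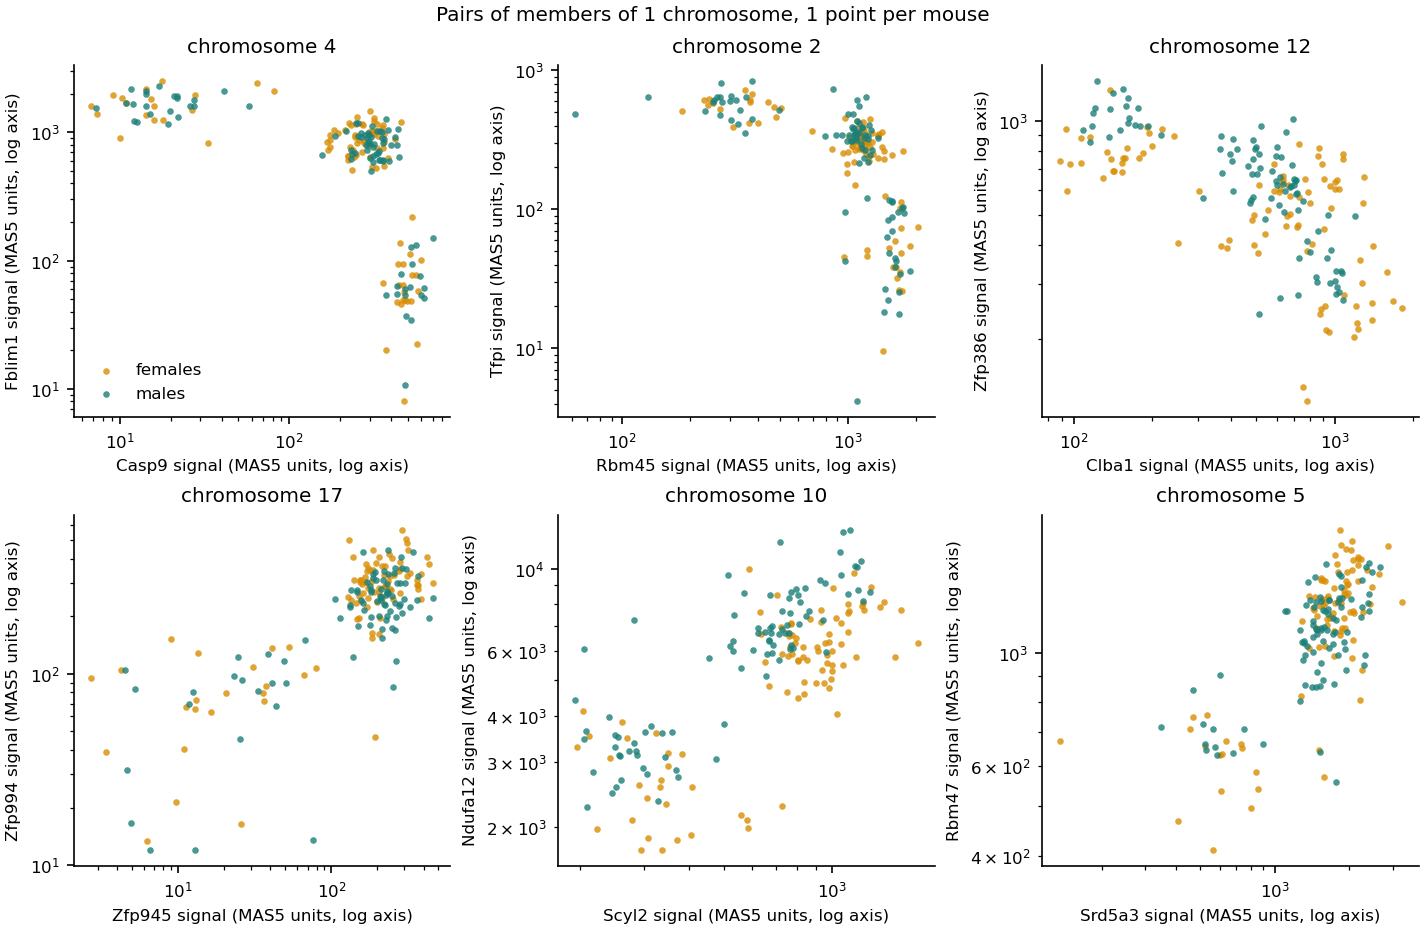
Signals of 6 pairs of members on 1 chromosome (both axes MAS5 units on log scales) in 93 females and 90 males, 1 point per mouse. Casp9 and Fblim1 formed 3 clouds, with 54 females in neither low group and 0 low in both. Rbm45 with Tfpi and Clba1 with Zfp386 were opposed as well, with 0 females low in both for the first pair and 1 for the second. The lower 3 pairs were mostly low together.

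The genes most like the 3 best-ranked members lay on the same chromosome, when sought among all 14710 probe sets over 200 MAS5 units. For Usp39 on chromosome 6 they were Osbpl3 (0.58 in females, 0.55 in males), Tex261 (0.52, 0.54) and Elmod3 (0.51, 0.58), which lie 145, 68 and 10 genes away. For Psmd6 on chromosome 14 they were Pxk (0.79, 0.73), Mapk1ip1l (0.62, 0.57) and Sfmbt1 (0.61, 0.55), of which Pxk lies 18 and Mapk1ip1l 272 genes away. For Casp9 on chromosome 4 they were Agtrap (0.71, 0.8), Pink1 (0.66, 0.68) and Hp1bp3 (0.72, 0.65), 76, 65 and 69 genes away. All 9 genes were thus on the chromosome of their member, and at distances from 10 to 272 genes.

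The sequences before the start of the 4 genes of the best-ranked neighbouring pairs are shown, since these genes moved together or in opposition while each has a promoter of its own. They are the 250 bases before the annotated start in the reference strain (RefSeq, GRCm38.p6), not of AKR or DBA/2. Casp9 lies at chr4:141793362-141793611 (plus strand), Fblim1 at chr4:141606053-141606302 (minus strand), where the first of 2 listed starts was taken, Zfp945 at chr17:22867135-22867384 (minus strand) and Zfp994 at chr17:22225615-22225864 (minus strand). Capitals mark matches on either strand to TATAAA, which the general factor TBP binds, to CCAAT, bound by NF-Y, to the GC box GGGCGG of Sp1 and to GAGGAA, the core bound by PU.1, a factor of the macrophage lineage.
Casp9: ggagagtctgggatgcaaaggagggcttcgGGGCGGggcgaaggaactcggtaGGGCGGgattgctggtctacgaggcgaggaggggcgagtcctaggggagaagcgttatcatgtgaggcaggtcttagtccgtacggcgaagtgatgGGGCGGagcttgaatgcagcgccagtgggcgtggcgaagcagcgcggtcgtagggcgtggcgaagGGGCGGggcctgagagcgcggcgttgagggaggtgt
Fblim1: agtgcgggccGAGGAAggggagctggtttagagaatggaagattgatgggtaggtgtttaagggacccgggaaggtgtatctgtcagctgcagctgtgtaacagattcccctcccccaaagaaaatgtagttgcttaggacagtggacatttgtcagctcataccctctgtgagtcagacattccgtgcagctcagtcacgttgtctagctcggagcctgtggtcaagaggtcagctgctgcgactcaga
Zfp945: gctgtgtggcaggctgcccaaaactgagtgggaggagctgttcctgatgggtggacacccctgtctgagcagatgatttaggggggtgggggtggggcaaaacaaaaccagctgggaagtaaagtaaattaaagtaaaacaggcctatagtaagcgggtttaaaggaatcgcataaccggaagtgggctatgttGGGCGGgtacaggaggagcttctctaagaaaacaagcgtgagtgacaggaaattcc
Zfp994: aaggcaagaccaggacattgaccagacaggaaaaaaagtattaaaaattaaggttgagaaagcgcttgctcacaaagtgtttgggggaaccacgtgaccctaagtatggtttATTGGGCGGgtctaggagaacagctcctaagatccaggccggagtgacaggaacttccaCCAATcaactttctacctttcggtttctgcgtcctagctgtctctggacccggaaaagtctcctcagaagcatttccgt
The window of Casp9 held GGGCGG at 4 places, from 220 to 36 bases before the start, and that of Fblim1 held GAGGAA 240 bases before it. Zfp945 held GGGCGG 56 bases before its start, and Zfp994 held it at 135 bases, overlapping a reverse match to CCAAT at 138 bases, with a forward match to CCAAT at 79 bases. Of all 32851 windows of this length 32.7% held GGGCGG, 33.8% CCAAT, 23.3% GAGGAA and 12.4% TATAAA. A match is a run of letters and not a site, and the opposed genes Casp9 and Fblim1 had no match of the same kind. Of the 100 members 81 had such a window in the table.

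In the 20 members of the run the smaller side was mostly or wholly mice of the run, and in 8 of them it was the run alone in both sexes. In Rpl7l1, for example, 4 of the 6 low males belonged to it. Among members with a smaller side of at most 10 mice, each of the 7 females of the run was on it in 24 to 27 of 30 members, and no other female in more than 2. Each of the 4 males numbered 93 to 96 was on it in 25 to 28 of 32 members, followed by male 99 with 12 and male 98 with 7. Without these 11 mice the median lower coefficient of the 20 members was 0.33 and both coefficients were over 0.556 in 0 of them, down from 12, and in 46 of the 68, as with the run. This follows from how the kinds were defined and is a description of them. All 11 mice of the run were on the smaller side in 18 of the 20 members and in 5 of the 68.

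**Figure D5:**
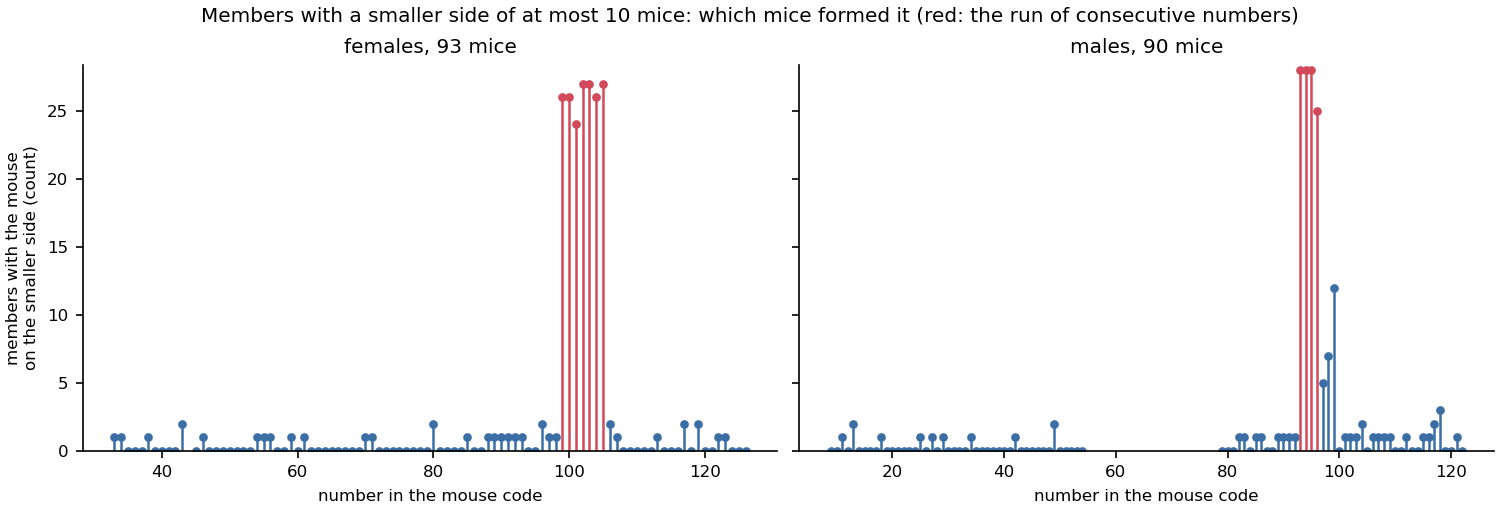
Number of members that had a given mouse on the smaller side (y axis, count), by the number in the mouse code (x axis), for members with a smaller side of at most 10 mice, in 93 females (30 members) and 90 males (32 members). The 7 females of the run and males 93 to 96 (red) stood at 24 or more, and the next were males 99 and 98 with 12 and 7.

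Acp2, the lysosomal acid phosphatase, was at 860.5 to 1517 in the 7 females and at 2720.5 to 6315 in the other 86, and at 878 to 1531 in the 4 males and 2359 to 5949 in the other 86. Pitpna, a transfer protein for phosphatidylinositol, was at 681 to 1124 against 2148 to 3889 in females and at 629.5 to 1444 against 2228 to 4407 in males. In neither gene did the run overlap the other mice. P2rx7, the ATP-gated channel upstream of the inflammasome, was at 599 to 878 against 1284 to 3311 in females and at 497 to 848 against 679 to 2346 in males, which overlapped. P2rx7 and the transcription factor Hhex, at 697 to 957 against 1118 to 2102 in females, were picked by function after their values were seen. Crlf2, which counted as a member of the run in 1 sex and is a subunit of the receptor for thymic stromal lymphopoietin, was at 1107 to 1714 against 2471 to 5465 in females and at 1147 to 1425 against 1817 to 4349 in males.

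Rpl7l1, a ribosome assembly protein, was at 838 to 1226 in the females of the run and 1622 to 2378 in the others, and Dnajc7, a cochaperone, at 1122 to 1645 and 1968 to 3289.9. In males Rpl7l1 was at 830.5 to 1184 against 1158 to 2478, which overlapped, and Dnajc7 at 1135 to 1825 against 1871 to 3115, which did not. Both were low in the run. Hnrnpc, a nuclear RNA-binding protein, was high in it, at 17518 to 20688 against 7313 to 11886 in females and 13218 to 20067 against 8099.6 to 13203 in males, and so was Eef1d, a subunit of the elongation factor eEF1, at 9506 to 11270.1 against 4483 to 6477 and 7203 to 10756 against 3928 to 6233. Of the 20 members 14 were low and 6 high in the run, with the same direction in both sexes in all 20. Acp2 had another probe set that followed the member's (0.9 in females, 0.87 in males), whereas that of Hnrnpc had -0.27 and 0.23.

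Some array and culture measures differed between the run and the other mice, and others overlapped. The beta-actin 3' to 5' ratio, a measure of how whole the RNA or the labelled copy is, was 1.36 to 1.55 in the 7 females of the run against 1.06 to 1.42 in the others, of which 3 of 86 reached the lowest of the run, and 1.32 to 1.54 in the 4 males against 1.14 to 1.34, with 2 of 86. The same ratio of Gapdh overlapped broadly, at 0.92 to 1.02 against 0.8 to 1.12 in females and 0.82 to 0.85 against 0.73 to 0.86 in males, and 34 and 15 of the 86 others reached the lowest of the run. The array medians overlapped too, at 61.8 to 74.1 against 51.1 to 112.4 in females. The summed signal of the 6 neutrophil markers was 8774 to 19354 in the females of the run and 383 to 10991 in the others (median 2843), and 6500 to 13522 against 412 to 16795 in males (median 2159). By median signal S100a8 was at 2221, and the other neutrophil markers at 6.7 (S100a9) to 192.6 (Camp). The sum is thus mostly that of S100a8, and the markers were not read 1 by 1 in the run. The summed signal of the 3 cell division markers was 854 to 1279 against 999 to 11560 in females (median 2531) and 1247 to 1418 against 1191 to 11498 in males (median 3349). The 9 macrophage markers overlapped, at 154898 to 188488 against 121058 to 207611 in females, and so did the 5 stromal markers, at 1708 to 52503 against 299 to 27004. The part of these measures in the split of the 20 genes was not tested, and the numbers in the codes are not stated to be a batch. The array measures also went with the signal of some of the 68 members spread over the numbers. The beta-actin ratio had correlations from -0.28 to 0.35 with them in females and from -0.28 to 0.3 in males, over 0.3 in size in 1 and 2 members. For the Gapdh ratio the range was -0.32 to 0.31 in females, with 3 members over 0.3 in size, and -0.39 to 0.43 in males, with 9. For the array median it was -0.41 to 0.42 in females, with 7, and -0.47 to 0.32 in males, with 3.

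Females and males were compared gene by gene with the Mann-Whitney test of the study's methods (2-sided, normal approximation), over 22059 transcripts with a Bonferroni threshold of 0.05. This contrast was not used to choose the members. The mouse codes of all males carry a prefix that those of females lack, and its meaning is not stated. Sex and this difference in labels cannot be told apart in the comparison. Of the 100 members 12 were higher in females and 9 in males, against 15.2% and 16% of all transcripts tested. The members had passed a minimum of 200 MAS5 units and the filter on code number, and the transcripts tested only a minimum of 78. Nothing is therefore read from the difference. Among the 68 members spread over the numbers 3 were higher in females and 2 in males, among the 20 of the run 6 and 4, and among the 12 others 3 and 3. When each array was scaled to the same median the counts were 18 and 2 over all members, beside 33% of all transcripts called. The median log2 ratio of all transcripts moved from -0.01 to 0.12 with the scaling. Of the 10 best-ranked members Rpl7l1, a member of the run, passed and was higher in males (adjusted p = 1.13e-05), a direction that turned after scaling. Psmd6 had an adjusted p of 0.0541, and the other 8 had one of 1. With a minimum of 200 MAS5 units, which left 15973 transcripts to adjust over, 23 members passed, 11 of them with the larger signal in males. Of all transcripts tested at that minimum 36.6% passed.

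Of the members that passed, Gpr162, an orphan receptor, had the largest ratio to females, with 3193 ± 1809 in females (SD, n = 93) and 1915 ± 1122 in the 90 + 24 males (SD) (1.67-fold, adjusted p = 0.00565, higher in the female in 70.8% of pairs of mice). Nsd3, a histone methyltransferase, followed with 3506 ± 823 in females (SD, n = 93) and 2219.5 ± 585 in the 90 + 24 males (SD) (1.58-fold, adjusted p = 1.72e-24), and Exosc4, a subunit of the RNA exosome, with 219 ± 71.4 in females (SD, n = 93) and 147 ± 78.2 in the 90 + 24 males (SD) (1.49-fold, adjusted p = 2.01e-05). The largest ratios to males were those of Serpinf1, which encodes the secreted factor PEDF, with 399 ± 436 in females (SD, n = 93) and 700.5 ± 453 in the 90 + 24 males (SD) (ratio of female to male mean 0.569, adjusted p = 0.00121), the zinc finger gene Zfp207 with 2844 ± 552 in females (SD, n = 93) and 4405 ± 636 in the 90 + 24 males (SD) (ratio 0.646, adjusted p = 3.60e-26) and Wdr48, a cofactor of deubiquitinases, with 563 ± 208 in females (SD, n = 93) and 738 ± 261 in the 90 + 24 males (SD) (ratio 0.762, adjusted p = 0.00136). Zfp207 and Nsd3 had the run in the smaller side of 1 sex, and both passed with and without the run and both among lower and among higher code numbers. Gpr162 and Exosc4 passed neither among the lower nor among the higher code numbers, Exosc4 did not pass without the males numbered 55 to 78 (1.25-fold), Serpinf1 passed among the lower code numbers (ratio 0.363) and not among the higher (0.806), and Wdr48 passed in neither and not after scaling (0.818). The probe sets of Exosc4 and Wdr48 carry the suffix x_at. Other probe sets of the named genes did not all go the same way. The brightest other one of Zfp207 had medians of 906 in females and 916 in the 90 males, and the next 210 and 150. Those of Nsd3 had 816 and 813, and 187 and 184. Those of Exosc4 had 743 and 883, and 416 and 362. Those of Wdr48 had 869 and 840, and 554 and 836. The other probe set of Serpinf1 had 483 and 934, higher in males like the member's. Their sex tests are not given here. Serpinf1 was below its cut in 28 of 93 females and 11 of 90 males, and the summed stromal markers had medians of 2669 in the 86 females and 6555 in the 86 males outside the run. The part of the stromal markers in its difference was not tested.

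Genes with strain alleles known in AKR or DBA/2 mice were read as a list. Of 6 such genes with a probe set analysed here, 2 had one over 200 MAS5 units. Myo5a, the motor protein whose allele in DBA/2 mice gives the dilute coat, was a member at rank 94. Its signal was 628 at the lowest, 1976 at the median and 4253 at the highest in females and 619 at the lowest, 2092 at the median and 4579 at the highest in males, 27 of 93 females and 31 of 90 males were below the cut, and 2 further probe sets followed it (0.93 and 0.92 in females). There was no wide gap, with 1451 and 1505 on either side of the cut in females. Ahr, the aryl hydrocarbon receptor, was at rank 2307 with coefficients of 0.33 and 0.34. Klrd1, Tyrp1, Hc and Thy1 did not reach 200 MAS5 units.

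Of the families counted by the start of the symbol, none held more than 5 of the 100 members. Members were 5 of 61 zinc finger genes of the Zfp series that passed the filters, 2 of 28 genes named Rpl or Rps, 1 of 57 solute carriers, 1 of 29 Rab genes, 1 of 18 Psm genes and 0 of 44 Tmem genes. Over all genes that passed the filters they were 100 of 3412, and the family counts were not tested against this. Mmp9, the gelatinase of macrophages, was at rank 95 and was picked by function after its values were seen. It had 1116 at the lowest, 12477 at the median and 27823 at the highest in females and 1827 at the lowest, 10629 at the median and 23794 at the highest in males, with 17 of 93 and 19 of 90 below the cut, and all 24 males numbered 55 to 78 were above the cut of the other males, with 16024 at the lowest, 26246 at the median and 36012 at the highest.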

How the data were processed

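Signals of the bone marrow macrophages of 207 mice were used, and the number of mice, each with 1 array, limits the precision. The deposited intensity values are MAS5 signals: per the study's methods the authors compared perfect match with mismatch probes in Microarray Suite 5.0 and scaled each array to its whole luminosity. They were used on that linear scale and as log2(signal + 1). A base difference between the strains under a probe can alter its signal, and this was not tested. Probe sets were named from the platform annotation (34958 with 1 symbol, 932 with several, 9211 with none), gene order is that of RefSeq, and the deposited genotype table, of which 95 columns for females were not used, names no array and was used only for shares of genotypes.

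The members and gene lists were chosen with earlier results of these data known. Genes named are the 30 best-ranked members, members within 10 genes of another, the 3 largest and 3 smallest sex ratios past the threshold, the 3 genes most like each of the first 3 members, 3 genes on either side of rank 100, the strain-allele genes, and others where the text says that they were picked after their values were seen. Cuts maximised the variance between sides. Sexes were compared by the Mann-Whitney test with Bonferroni adjustment over transcripts whose 67th percentile was at least 78 MAS5 units, which stands in for the authors' present calls, and p-values measure the spread between mice. Alternatives were an offset of 16, a minimum of 400, scaled arrays, all males, a ranking by the fit of a mixture of 2 normal distributions, the lower and the higher code numbers on their own and limma. No arrays held identical values. The steps were tested on simulated data. Python 3.11.15, scipy 1.17.1, pandas 2.3.3, R 4.3.3 and limma 3.58.1 were used.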

Additional observations from a re-analysis of the deposited data

How the results depend on the processing

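Of the 100 members, 94 were again on the list with an offset of 16, 69 after scaling arrays to the same median, 69 with all males and 75 with a minimum of 400 MAS5 units. When genes were ranked by how much better a mixture of 2 normal distributions fitted than 1, it was 70. It was 60 without the 7 females and 4 males of the run, an alternative chosen after seeing the data. Of the 30 best-ranked members 29, 27, 25 and 23 kept their side of the coefficient line with the offset, scaling, all males and without the run. The count of members that differed between the sexes, 21, was 7 among the higher code numbers, 15 among the lower and 45 with limma and Benjamini-Hochberg adjustment, beside 18%, 24.9% and 63.5% of all transcripts against 31.2%. The cause was not tested. After scaling the count was 20 (18 with the larger signal in females, 2 in males), beside 33% of all transcripts. Of the 21, 14 were called in the same direction. The ratio of female to male mean turned to 1.01 in Rpl7l1, 1.029 in Ube2d2a and 1.025 in Usp47 under scaling. The other settings tried left the count between 15 and 23, beside 16.2% to 36.6% of all transcripts. The count of members with 25% or 75% of mice below the cut in both sexes, 45, was 35 when the cut came from a mixture of 2 normal distributions. No paired analysis was possible because each mouse is of 1 sex and the numbers in the codes of females and males do not mark shared animals. The number of mice on the smaller side, as few as 2, limits what a coefficient can show.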
